A study of Mus musculus with 16 samples.

Results

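The genes described here are the enzymes and binding proteins by which a muscle cell releases, activates, carries and oxidises fatty acids, with the enzymes of ketone body use. They were taken by name, 43 symbols in all, and 42 of them were among the 11710 genes of the count table. Acot1 is not analysed here. Messenger RNA was measured by RNA sequencing in a rotator cuff muscle of mice, the shoulder muscle group whose tendons tear. The 16 samples form 4 groups of 4. C57BL/6J mice (BL6 below), a common inbred strain, and MRL/MpJ mice (MRL below), an inbred strain known for unusual wound healing, were each studied unoperated and after surgery. The operated animals had their tendon cut away (tenectomy) together with denervation of the muscle. No transgene or drug is named for any group, and age, sex and time after surgery are not used here. The labels name the supraspinatus and the series' design text names the infraspinatus, so the tissue is called rotator cuff muscle. Nothing in the labels says that the 4 samples of a group came from separate animals, so the p-values measure the spread between these samples, which may be partly technical.

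In muscle, lipases free fatty acids from stored triglyceride, a binding protein carries them through the cytosol, and acyl-CoA synthetases join them to coenzyme A. Carnitine palmitoyltransferases then pass the acyl group into the mitochondrion, where beta-oxidation shortens it in repeated rounds of dehydrogenation, hydration, another oxidation and thiolysis. Electrons from the dehydrogenases enter the respiratory chain through the electron transfer flavoprotein. Peroxisomes shorten very long chains, and thioesterases split acyl-CoA back into free acid. Oxidative muscle fibres hold much of this machinery, and adipocytes hold much of the lipase.

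Libraries held between 24323862 and 43552964 counts. Levels are given as CPM, counts scaled to 1000000 per library with a correction by the trimmed mean of M values (TMM). Muscle fibre genes were abundant in every library: the 8 markers of the list, which include the creatine kinase Ckm and the actin Acta1, summed to between 40796 and 130659 CPM. Each result below is a relative amount of RNA in whole muscle, in which fewer cells of a type and less RNA per cell cannot be told apart. Operated MRL replicate 4 stood apart from the other operated MRL libraries. The 13 protein genes of the mitochondrial genome summed to 104140 CPM in it, against 200111 to 245725 CPM in replicates 1 to 3 and 103717 to 117969 CPM in the unoperated MRL libraries. Operated BL6 replicate 4 stood apart as well, with 7336 CPM of 5 fibroblast markers against 1042 to 1914 CPM in the other 3, and 460 CPM of 6 macrophage markers against 68.7 to 135 CPM. In unoperated MRL replicate 1 the macrophage markers summed to 291 CPM, against 58.4 to 80.9 CPM in replicates 2 to 4. Where leaving out 1 of these 3 libraries gave or ended a call of a gene named below, the value without it is given.

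After surgery in BL6, 23 of the 42 genes were lower and 7 higher, and the other 12 did not pass the test (edgeR's quasi-likelihood test, Benjamini-Hochberg adjusted over 11709 genes, called at an adjusted p under 0.05). Across all genes tested, 32.8% were called lower and 35.1% higher in the same comparison, 67.9% in all. The median log2 fold change was -0.46 over the 42 genes and 0.04 over all genes. The groups did not overlap, operated below unoperated, for 19 of the 42 genes and operated above unoperated for 4, against 29.2% and 27.5% of all genes. Without operated BL6 replicate 4, 21 genes were called lower and 7 higher. The largest drops were in the activating enzyme Acsl3, the dehydrogenases Acad9 and Acad11 and the peroxisomal enzyme Ehhadh, and the largest rises in the flavoprotein subunit Etfb, the synthetase Acsl5 and the lipases Mgll and Lipe.

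After surgery in MRL, 17 of the 42 genes were lower and 7 higher, and 18 did not pass. Of all genes 22.7% were called lower and 22.3% higher, 45% in all, and the median was -0.28 over the 42 genes against 0.01 over all genes. Here 9 genes did not overlap with operated below unoperated and 4 with operated above, against 16.7% and 17% of all genes. Without operated MRL replicate 4 the counts were 21 lower and 8 higher, with a median of -0.35, and without unoperated MRL replicate 1 they were 18 and 7. In operated MRL replicate 4, 11 of the 24 genes called in MRL lay inside the range of the unoperated MRL libraries, while none of the 24 did in operated MRL replicate 1, 2 or 3. The count of genes called lower fell to 7 without operated MRL replicate 3 or unoperated MRL replicate 4, to 10 without operated MRL replicate 2, and to 11 without operated MRL replicate 1 or unoperated MRL replicate 2.

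**Figure D1:**
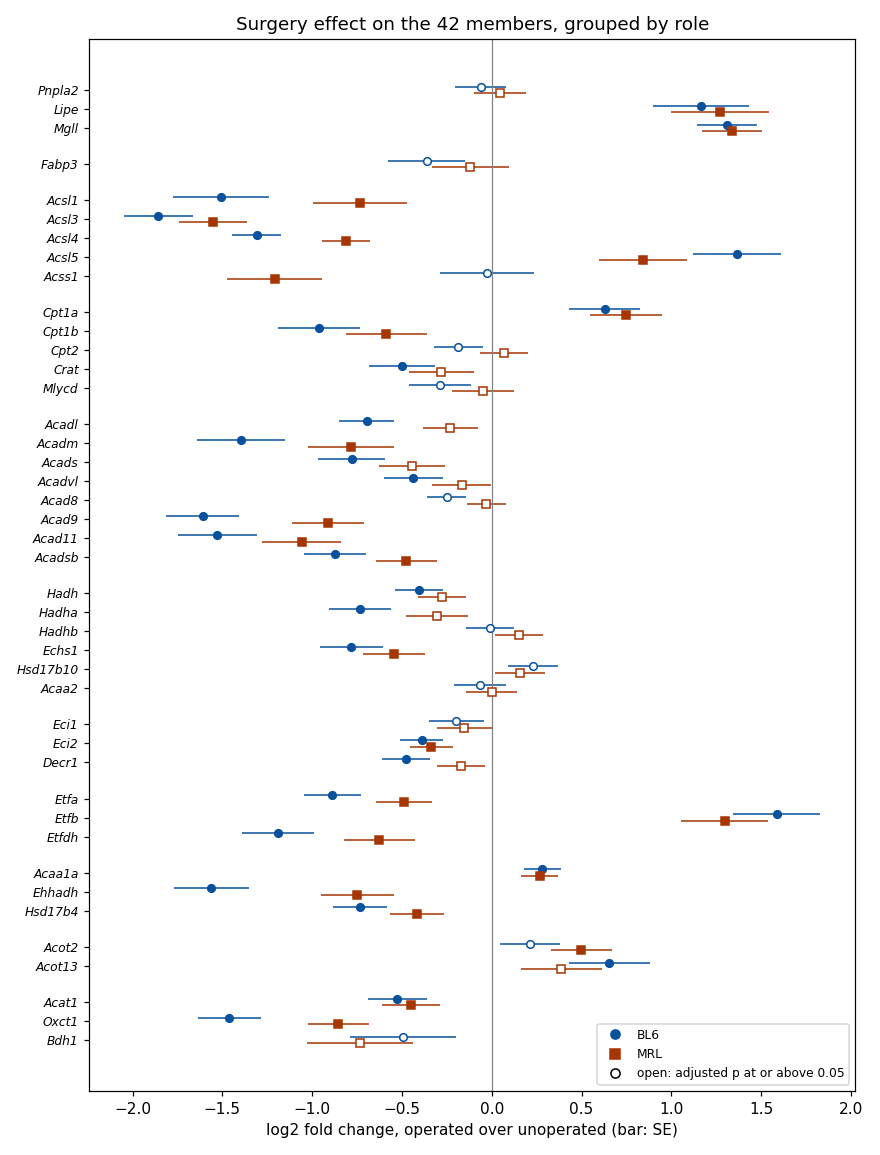
Log2 fold change of each of the 42 genes after surgery, in BL6 and in MRL, ordered by role, with bars of the standard error from edgeR's quasi-likelihood fit and open points where the adjusted p was at or above 0.05. Most dehydrogenases, Acsl1, Acsl3 and Acsl4 lie below 0 in both strains, and Mgll, Lipe, Etfb and Acsl5 lie above 0 in both.

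The direction was shared where both strains gave a call. Of the 42 genes, 16 were called lower in both strains and 6 higher in both (Acsl5, Cpt1a, Etfb, Lipe, Mgll and Acaa1a), and none was called in opposite directions. A further 7 were called lower in BL6 only and 1 higher in BL6 only (Acot13), 1 lower in MRL only (Acss1) and 1 higher in MRL only (Acot2), and 10 in neither. A call in 1 strain alone does not show that the strains differ. Among the 22 genes called in both, the change was the larger in BL6 for 19. These counts across strains were not made over all genes, of which 67.9% were called in BL6 and 45% in MRL. They describe the 42 genes and are not read as particular to them. Of the 30 calls in BL6, 24 held under every alternative analysis run. The exceptions were Acaa1a, Acadvl, Acot13, Cpt1a, Crat and Hadh. Of the 24 calls in MRL, 11 held under every alternative: Acsl3, Acsl4, Acsl5, Acss1, Cpt1a, Acad9, Acad11, Etfb, Oxct1, Lipe and Mgll.

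Summed over the 42 genes, unoperated BL6 muscle held 7716 ± 693 CPM (mean ± SD, n = 4, as throughout) and operated BL6 muscle 5346 ± 974 CPM. Unoperated MRL muscle held 6906 ± 631 CPM and operated MRL muscle 5675 ± 673 CPM. Operated BL6 replicate 4 had the lowest sum of all, 4056 CPM, and operated MRL replicate 4 the highest of its group, 6456 CPM. As a plain share of all counts, without TMM, the genes took 0.710% ± 0.0209 in unoperated and 0.531% ± 0.0122 in operated BL6, and 0.703% ± 0.0510 in unoperated and 0.601% ± 0.0918 in operated MRL. By that share operated BL6 replicate 4 was close to its group, at 0.516% against 0.528% to 0.544%.

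**Figure D2:**
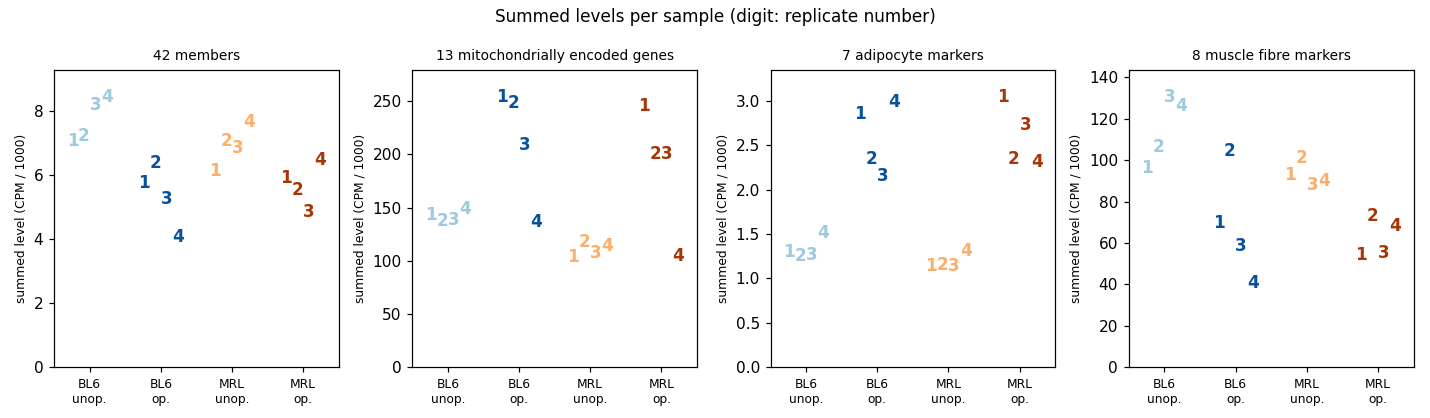
Summed CPM, on axes scaled as labelled, of the 42 genes, the 13 mitochondrially encoded genes, 7 adipocyte markers and 8 muscle fibre markers in each of the 16 libraries, by group, each digit being a replicate number. Operated BL6 replicate 4 has the lowest sum of the 42 genes, 4056 CPM, and operated MRL replicate 4 the lowest mitochondrially encoded sum of its group, 104140 CPM.

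Levels between genes were compared per kilobase of exon. In unoperated BL6 the order was led by the binding protein Fabp3 at 350.1 ± 43.3 CPM per kilobase, then Acadvl at 238 ± 14.9, Acadl at 216 ± 17.2, Oxct1 at 208 ± 11.6 and Acaa2 at 179 ± 21.9 CPM per kilobase. From Acadvl down, each neighbouring pair in this order differed by less than the sum of its SDs. The lowest were Cpt1a, Acsl5 and Cpt1b. The level of Cpt1b, and so its place, is uncertain, since another gene covers 81.4% of its exon bases on the same strand. In operated BL6 the thioesterase Acot13 (274 ± 73.9 CPM per kilobase) and Fabp3 (273 ± 90.7) headed the order and did not differ beyond their spread, while the rank of Oxct1 was 9, at 75.4 ± 12.2 CPM per kilobase.

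The starts of 4 genes are shown because their promoter windows hold the letters AGGTCA, the hexamer that nuclear receptors of lipid metabolism recognise, and because the genes moved in different directions. RefSeq promoters of GRCm38.p6 (250 bases before to 50 after each start) were found for 35 of the 43 genes, as 39 promoters. AGGTCA was searched on both strands and found in 4 of the 39 (10.3%), against 16.3% of all 32851 promoters of the table. The PPAR direct repeat, 2 copies of AGGTCA with 1 base of any kind between them, was in 0 of the 39 and in 0.0396% of all, and the estrogen-related receptor site TCAAGGTCA in 0 of the 39 and in 0.423% of all, on either strand. Both contain AGGTCA. A match describes letters only. The stretches lie before each gene's RefSeq start, hold no GENCODE exon of any gene (that of Cpt1a lies in the first intron of a longer transcript of the gene) and read 5′ to 3′ on the gene's strand, with AGGTCA or its reverse complement TGACCT in capitals. The fifth stretch is the whole gap between the divergent genes Hadha and Hadhb, on the plus strand, and holds no match.
Acadm, chr3:153944644-153944893, minus strand: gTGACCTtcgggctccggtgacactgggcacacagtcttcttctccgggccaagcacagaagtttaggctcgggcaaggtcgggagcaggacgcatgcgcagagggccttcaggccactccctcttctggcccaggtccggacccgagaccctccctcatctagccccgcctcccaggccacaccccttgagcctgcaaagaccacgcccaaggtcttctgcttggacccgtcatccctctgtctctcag
Echs1, chr7:140116477-140116671, minus strand: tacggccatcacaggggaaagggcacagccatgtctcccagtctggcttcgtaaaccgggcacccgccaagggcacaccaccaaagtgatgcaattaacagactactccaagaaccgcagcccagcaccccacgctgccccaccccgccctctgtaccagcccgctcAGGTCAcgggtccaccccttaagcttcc
Acadvl, chr11:70015429-70015678, minus strand: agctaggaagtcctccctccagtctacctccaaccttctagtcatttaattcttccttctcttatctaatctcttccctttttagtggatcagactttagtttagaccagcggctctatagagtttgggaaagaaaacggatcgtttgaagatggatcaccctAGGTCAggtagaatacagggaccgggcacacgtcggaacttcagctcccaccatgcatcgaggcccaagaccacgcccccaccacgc
Cpt1a, chr19:3323051-3323284, plus strand: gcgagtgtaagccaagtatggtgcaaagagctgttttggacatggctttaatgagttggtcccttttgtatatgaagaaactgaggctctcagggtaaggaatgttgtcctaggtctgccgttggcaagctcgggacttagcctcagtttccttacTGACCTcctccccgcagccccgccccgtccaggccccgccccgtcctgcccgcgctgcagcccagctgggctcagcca
Hadha-Hadhb, chr5:30155163-30155247, plus strand: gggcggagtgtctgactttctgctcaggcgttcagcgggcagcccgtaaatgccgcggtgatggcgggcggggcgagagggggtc
The match begins 249 bases before the RefSeq start in Acadm, 83 in Echs1, 87 in Acadvl and 94 in Cpt1a. Acadm and Echs1 fell in both strains, Acadvl fell in BL6, and Cpt1a rose in both, so the 4 genes with the hexamer did not share a direction.

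The lipases divided. Pnpla2, which takes the first fatty acid off triglyceride, did not pass in either strain (ENSMUSG00000025509, chr7:141455198-141460743, plus strand, GRCm38 as throughout). Its level was 252, 279.8, 341 and 296 CPM in the 4 unoperated BL6 libraries and 319, 318, 249 and 234 CPM in the operated ones, and 205, 243, 229 and 249 CPM in unoperated and 204, 234, 228 and 289 CPM in operated MRL. The groups overlapped in both strains, with log2 fold changes of -0.06 (SE 0.14, edgeR adjusted p = 0.716) and 0.05 (SE 0.14, edgeR adjusted p = 0.803). Their sign turned under some alternatives. Lipe, the hormone-sensitive lipase that works on the diglyceride (ENSMUSG00000003123, chr7:25379527-25398710, minus strand), rose in both. It was at 29.7, 25.97, 29.1 and 28.3 CPM in unoperated BL6 against 57.3, 58.8, 46.4 and 90.99 CPM after surgery, and at 20.8, 22.3, 22.2 and 26.4 CPM in unoperated MRL against 34.8, 31.98, 69.1 and 85.3 CPM after surgery. Every operated library lay above every unoperated library of its strain. On the log2 scale the changes were 1.17 (SE 0.27, edgeR adjusted p = 0.00149) in BL6 and 1.27 (SE 0.27, edgeR adjusted p = 0.00300) in MRL.

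Mgll, which frees the last fatty acid from monoglyceride (ENSMUSG00000033174, chr6:88724412-88828360, plus strand), held 68.2, 50.5, 48.7 and 41.7 CPM in unoperated BL6 and 148, 138, 116 and 117 CPM in operated BL6. In MRL it held 53.3, 41.4, 39.8 and 43.7 CPM unoperated and 122, 103, 138 and 87.8 CPM operated. Again no operated library reached down to the unoperated range, and Mgll was 2.48-fold higher in BL6 and 2.53-fold higher in MRL after surgery. The fitted log2 changes were 1.31 (SE 0.17, edgeR adjusted p = 2.52e-05) and 1.34 (SE 0.17, edgeR adjusted p = 0.000267). Adipocyte markers moved with these lipases. Of 7 markers tested, 6 (Adipoq, Plin1, Cidec, Cfd, Retn and Fabp4) rose in both strains and Lpl did not pass in either. Without operated MRL replicate 4, Plin1 did not pass in MRL (log2 1.56 in place of 2.75, edgeR adjusted p = 0.0930). Their sum ran from 1251 to 1510 CPM in unoperated and 2157 to 2983 CPM in operated BL6, and from 1144 to 1312 CPM in unoperated and 2309 to 3048 CPM in operated MRL, with Lpl and Fabp4 as its largest parts. None of the adipocyte-defining markers was at 0 in any library. The adipokine Adipoq was at 5.44, 4.33, 2.80 and 5.74 CPM in unoperated and 20.02, 8.13, 25.6 and 109.95 CPM in operated BL6, and at 6.79, 6.52, 3.999 and 9.45 CPM in unoperated and 18.4, 18.3, 38.98 and 85.1 CPM in operated MRL. In each strain operated replicate 4 had the most Adipoq and the most Lipe of its group. Operated MRL replicate 3 came next in both, while operated BL6 replicate 3, next in Adipoq, had the least Lipe of its group. Mgll was the lowest of its group in operated MRL replicate 4 and not the highest in operated BL6 replicate 4. The part of adipocytes in these rises was not tested.

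**Figure D3:**
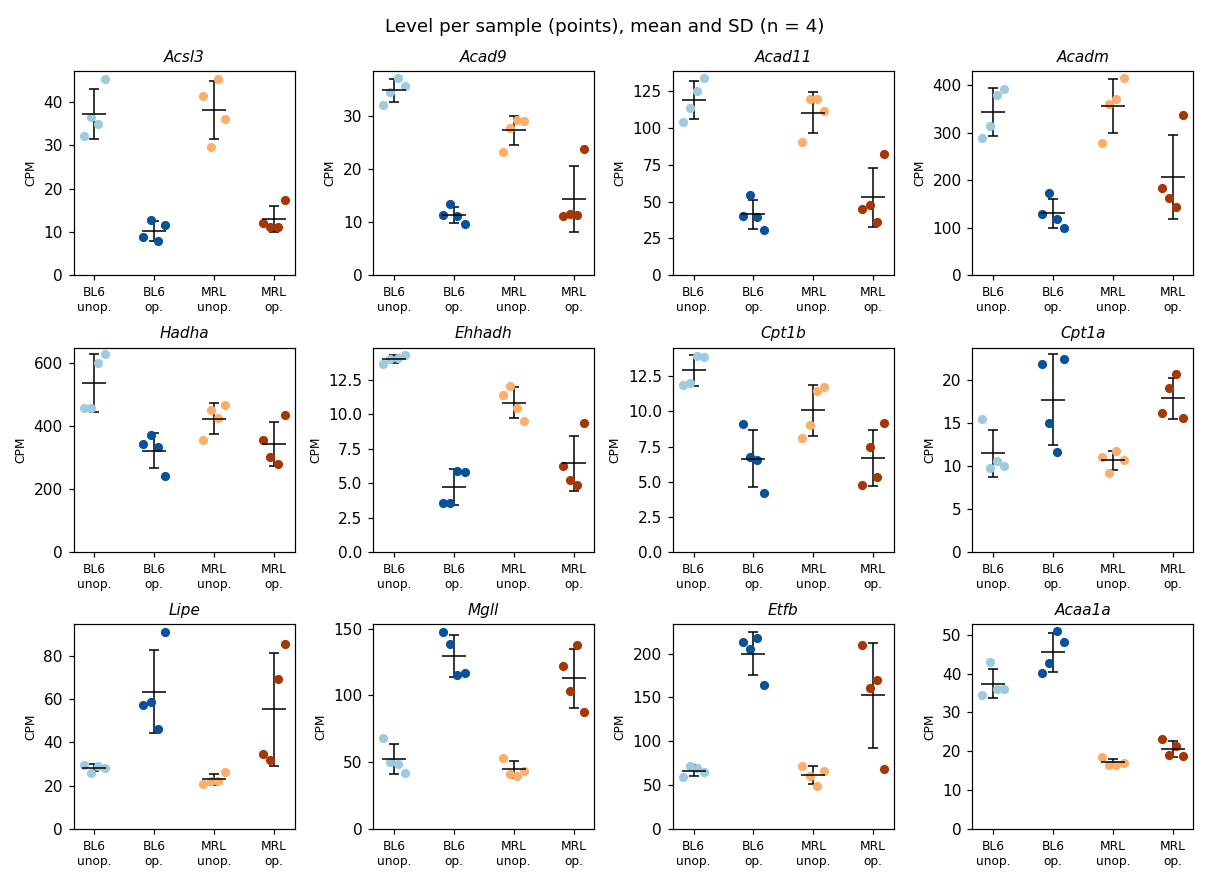
CPM of 12 genes in each of the 16 libraries (points, replicates 1 to 4 from left to right), by group, with the group mean and SD as bars (n = 4). Acsl3, Acad9, Acad11 and Ehhadh are lower after surgery in both strains while Etfb, Mgll and Lipe are higher, Acaa1a is lower in MRL than in BL6, and operated MRL replicate 4 lies inside the unoperated MRL range for Acad9, Acadm and Etfb.

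Fabp3, the fatty acid binding protein of heart and skeletal muscle (ENSMUSG00000028773, chr4:130308595-130315463, plus strand), did not pass in either strain. Its level was 299.9, 239, 289 and 324 CPM in unoperated and 272, 289, 213 and 124 CPM in operated BL6, and 258, 241, 227 and 279 CPM in unoperated and 280.3, 254, 214 and 177 CPM in operated MRL. The groups overlapped, and operated BL6 replicate 4 was the lowest of the 16. The log2 fold changes were -0.36 (SE 0.21, edgeR adjusted p = 0.145) and -0.12 (SE 0.21, edgeR adjusted p = 0.659). A pseudogene, Fabp3-ps1, matches 48.8% of the Fabp3 transcript at 99.3% identity, so the authors' counting could have divided reads between the copies.

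Among the 5 activating enzymes, 3 fell and 1 rose in BL6, and 4 fell and 1 rose in MRL. Of all genes 32.8% were called lower and 35.1% higher in BL6, and 22.7% and 22.3% in MRL. Acsl3, a long-chain acyl-CoA synthetase of the endoplasmic reticulum and lipid droplets (ENSMUSG00000032883, chr1:78657825-78707743, plus strand), showed the largest drop of all 42 genes in each strain. It was at 32.1, 36.7, 34.9 and 45.3 CPM in unoperated and 8.76, 12.7, 7.98 and 11.6 CPM in operated BL6, and at 41.4, 29.7, 45.4 and 36.2 CPM in unoperated and 12.1, 11.1, 11.3 and 17.5 CPM in operated MRL. The groups stood well apart in both strains, with operated MRL replicate 4 the highest of its group. The level was 3.62-fold lower in BL6 and 2.94-fold lower in MRL, with log2 fold changes of -1.86 (SE 0.19, edgeR adjusted p = 8.92e-06) and -1.55 (SE 0.19, edgeR adjusted p = 0.000265). Acsl4, a synthetase that prefers arachidonate (ENSMUSG00000031278, chrX:142317993-142390535, minus strand), was at 45.2, 34.6, 31.5 and 36.2 CPM in unoperated and 14.7, 17.7, 14.3 and 12.8 CPM in operated BL6. In MRL it was at 34.1, 45.4, 44.3 and 37.7 CPM unoperated and 22.7, 25.7, 20.1 and 23.4 CPM operated. It fell without overlap in both strains, by 1.31 on the log2 scale in BL6 (edgeR adjusted p = 9.42e-06) and by 0.81 in MRL (edgeR adjusted p = 0.000902), and ended higher in operated MRL than in any operated BL6 library.

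Acsl1, the main long-chain synthetase of oxidative tissue, went from 433 ± 30.9 to 152 ± 37.2 CPM in BL6 (log2 -1.51 (SE 0.27, edgeR adjusted p = 0.000216)). In MRL it went from 343 ± 72.4 to 206 ± 101 CPM (log2 -0.73 (SE 0.26, edgeR adjusted p = 0.0342)). The MRL value was -1.14 without operated MRL replicate 4, in which Acsl1 was at 357 CPM against 144 to 172 CPM in the other 3. The MRL call was lost in 8 of 25 alternatives, among them those without operated MRL replicate 1, 2 or 3, or unoperated MRL replicate 2, 3 or 4 (log2 -0.72 to -0.60, edgeR adjusted p from 0.0682 to 0.109). Acsl5, a synthetase of mitochondria and endoplasmic reticulum, moved the other way, from 8.98 ± 2.52 to 23.1 ± 4.32 CPM in BL6 (log2 1.37 (SE 0.25, edgeR adjusted p = 0.000244)) and from 12.1 ± 5.15 to 21.6 ± 3.09 CPM in MRL (log2 0.84 (SE 0.24, edgeR adjusted p = 0.0127)). Acss1, which activates acetate in the mitochondrion (ENSMUSG00000027452, chr2:150618105-150668500, minus strand), fell in MRL. Its level was 50.4, 60.4, 71.8 and 68.7 CPM in unoperated and 82.8, 85.996, 41.3 and 36.8 CPM in operated BL6, and 71.7, 114, 92.3 and 126 CPM in unoperated and 38.5, 35.5, 44.7 and 55.6 CPM in operated MRL. In BL6 the operated libraries divided, replicates 1 and 2 above and replicates 3 and 4 below all the unoperated ones, while in MRL every operated library was below every unoperated one. The changes on the log2 scale were -0.03 (SE 0.26, edgeR adjusted p = 0.934) in BL6 and -1.21 (SE 0.26, edgeR adjusted p = 0.00332) in MRL.

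Entry into the mitochondrion rests on the carnitine enzymes. Cpt1b, the muscle form of the outer membrane transferase (ENSMUSG00000078937, chr15:89416405-89425863, minus strand), and Cpt1a, the liver form that other cells also use (ENSMUSG00000024900, chr19:3322334-3385733, plus strand), moved in opposite directions. Cpt1b was at 11.9, 12.04, 13.9 and 13.9 CPM in unoperated and 9.12, 6.78, 6.51 and 4.21 CPM in operated BL6, and at 8.10, 9.02, 11.4 and 11.8 CPM in unoperated and 4.79, 7.49, 5.33 and 9.16 CPM in operated MRL. Groups overlapped in MRL only, where replicate 4 was the highest operated library. edgeR's log2 fold changes were -0.96 (SE 0.23, edgeR adjusted p = 0.00177) and -0.59 (SE 0.23, edgeR adjusted p = 0.0458), and the MRL call was lost in 14 of 25 alternatives, among them those without operated BL6 replicate 3, or unoperated BL6 replicate 1, 2, 3 or 4, or operated MRL replicate 1, 2 or 3, or unoperated MRL replicate 2, 3 or 4 (log2 -0.64 to -0.46, edgeR adjusted p from 0.0546 to 0.133). Cpt1a was at 15.5, 9.77, 10.6 and 9.99 CPM in unoperated and 21.8, 14.95, 11.6 and 22.4 CPM in operated BL6, and at 11.004, 9.15, 11.7 and 10.7 CPM in unoperated and 16.2, 19.04, 20.6 and 15.6 CPM in operated MRL. The BL6 groups overlapped and the MRL groups did not. The log2 fold changes were 0.63 (SE 0.20, edgeR adjusted p = 0.0115) and 0.75 (SE 0.20, edgeR adjusted p = 0.00874). Leaving out unoperated MRL replicate 1 and operated BL6 replicate 4 together ended the BL6 call (log2 0.49, edgeR adjusted p = 0.0516). Within libraries the CPM ratio of Cpt1a to Cpt1b went from 0.899 ± 0.270 to 2.93 ± 1.62 in BL6 and from 1.08 ± 0.195 to 2.87 ± 0.956 in MRL. GENCODE places the read-through gene Gm44502 over 81.4% of the exon bases of Cpt1b on the same strand, and how shared reads were counted is not given in the sources used here, so the absolute level of Cpt1b is uncertain.

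Cpt2, the inner membrane transferase, did not pass in either strain, at 112 ± 12.7 and 98.8 ± 15.2 CPM in unoperated and operated BL6. Crat, which shuttles short acyl groups onto carnitine, fell in BL6 from 681 ± 88.5 to 482 ± 139 CPM (log2 -0.50 (SE 0.18, edgeR adjusted p = 0.0249)), a call lost in 6 of 25 alternatives, among them those without operated BL6 replicate 3 or 4, or unoperated BL6 replicate 3 or 4 (log2 -0.48 to -0.35, edgeR adjusted p from 0.0536 to 0.0684). Mlycd, malonyl-CoA decarboxylase, which removes the inhibitor of the outer transferase, did not pass after surgery in either strain.

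All 8 acyl-CoA dehydrogenases had a negative log2 fold change in both strains (Acad8 in MRL turned to 0.03 with libraries scaled by total counts). Of the 8, 7 passed the test in BL6 and 4 in MRL (Acadm, Acad9, Acad11 and Acadsb). Of all 11709 genes, 5615 had a negative log2 fold change in BL6 and 5803 in MRL. The shares called lower were 32.8% and 22.7%. Acad9, a dehydrogenase that also serves complex I assembly (ENSMUSG00000027710, chr3:36065979-36092853, plus strand), was at 32.02, 34.5, 37.03 and 35.7 CPM in unoperated and 11.3, 13.4, 11.2 and 9.72 CPM in operated BL6. In MRL it was at 23.2, 27.7, 29.2 and 28.96 CPM unoperated and 11.1, 11.5, 11.4 and 23.7 CPM operated. The BL6 groups were far apart, and in MRL only replicate 4 lay within the unoperated range. On the log2 scale the changes were -1.61 (SE 0.21, edgeR adjusted p = 2.38e-05) and -0.91 (SE 0.20, edgeR adjusted p = 0.00347), with -1.27 in MRL without replicate 4. Acad11, which acts on long and hydroxylated chains (ENSMUSG00000090150, chr9:104063377-104127725, plus strand), was at 104, 113, 125 and 133 CPM in unoperated and 40.3, 54.4, 39.3 and 30.8 CPM in operated BL6. In MRL it was at 89.99, 119, 119.6 and 111 CPM unoperated and 44.8, 47.8, 36.4 and 82.2 CPM operated. Neither strain's groups overlapped, and Acad11 fell by 1.53 on the log2 scale in BL6 (edgeR adjusted p = 5.20e-05) and by 1.06 in MRL (edgeR adjusted p = 0.00261).

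Acadm, the medium-chain dehydrogenase whose promoter is printed above (ENSMUSG00000062908, chr3:153922357-153944632, minus strand), was at 288, 315, 379.7 and 392 CPM in unoperated and 129, 173, 119 and 100.5 CPM in operated BL6, and at 279, 360.2, 370.4 and 415 CPM in unoperated and 184, 163, 143 and 337 CPM in operated MRL. In BL6 it was 2.63-fold lower without overlap. In MRL 3 operated libraries lay below the unoperated range and replicate 4 inside it. The fitted log2 changes were -1.40 (SE 0.24, edgeR adjusted p = 0.000191) and -0.78 (SE 0.24, edgeR adjusted p = 0.0169), with -1.12 in MRL without operated MRL replicate 4. The MRL call was lost in 3 of 25 alternatives, those without operated MRL replicate 2 or 3, or unoperated MRL replicate 4 (log2 -0.70 to -0.64, edgeR adjusted p from 0.0507 to 0.0606). The very long, long and short chain enzymes moved less. Acadvl went from 640.01 ± 40.1 to 473 ± 113 CPM in BL6 (log2 -0.44 (SE 0.16, edgeR adjusted p = 0.0275)), a call lost in 6 of 25 alternatives, among them those without operated BL6 replicate 3 or 4, or unoperated BL6 replicate 3 or 4 (log2 -0.43 to -0.29, edgeR adjusted p from 0.0561 to 0.0663). Acadl went from 432 ± 34.5 to 267 ± 49.3 CPM (log2 -0.70 (SE 0.15, edgeR adjusted p = 0.00107)) and Acads from 123 ± 12.95 to 71.3 ± 6.12 CPM (log2 -0.78 (SE 0.19, edgeR adjusted p = 0.00188)). None of these 3 passed in MRL over all libraries. For Acads the MRL value was -0.44 (edgeR adjusted p = 0.0618), and without operated MRL replicate 4, which held 144 CPM against 72.2 to 80.9 CPM in the other 3, it was -0.74 and passed (edgeR adjusted p = 0.000190). Acadsb and Acad8 belong to branched-chain amino acid breakdown. Acadsb fell in both strains (log2 -0.87 and -0.48), the MRL call being lost in 6 of 25 alternatives, those without operated MRL replicate 1, 2 or 3, or unoperated MRL replicate 2, 3 or 4 (log2 -0.49 to -0.41, edgeR adjusted p from 0.0600 to 0.0951). Acad8 did not pass in either (log2 -0.25 (SE 0.11, edgeR adjusted p = 0.0508) in BL6, and an adjusted p of 0.0166 by edgeR without operated MRL replicate 4). The gene Dvl2 on the other strand overlaps 42.9% of the exon bases of Acadvl, and the use of strand in counting is not given in the sources used here.

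Of the 6 enzymes of the later mitochondrial steps, 3 fell in BL6 (Hadha, Echs1 and Hadh) and 1 in MRL (Echs1). Of all genes 32.8% were called lower in BL6 and 22.7% in MRL, so the MRL count of 16.7% is under the share of all genes. Hadha and Hadhb encode the alpha and beta subunits of the trifunctional protein and face away from each other on chromosome 5, with 85 bases between the genes by GENCODE and 272 between their RefSeq starts (ENSMUSG00000025745, chr5:30118304-30155162, minus strand; ENSMUSG00000059447, chr5:30155248-30184593, plus strand). Hadha was at 457, 456, 599.9 and 628 CPM in unoperated and 342, 371, 333 and 241 CPM in operated BL6, and at 354, 449, 423 and 464 CPM in unoperated and 354, 301, 280.2 and 436 CPM in operated MRL. It fell without overlap in BL6 and overlapped in MRL, where replicate 4 lay inside the unoperated range and replicate 1 at its lower edge. The log2 fold changes were -0.73 (SE 0.17, edgeR adjusted p = 0.00183) and -0.30 (SE 0.17, edgeR adjusted p = 0.160), and without operated MRL replicate 4 the MRL value was -0.44 and passed (edgeR adjusted p = 0.0382). Hadhb, given here after its values were seen, was at 58.1, 65.8, 71.1 and 82.3 CPM in unoperated and 70.8, 75.2, 76.2 and 53.8 CPM in operated BL6, and at 56.8, 63.4, 62.1 and 66.9 CPM in unoperated and 82.9, 66.9, 62.5 and 64.2 CPM in operated MRL. These groups overlapped throughout, with log2 fold changes of -0.01 (SE 0.13, edgeR adjusted p = 0.962) and 0.15 (SE 0.13, edgeR adjusted p = 0.364). The CPM ratio of Hadhb to Hadha within a library was 0.130 ± 0.0108 in unoperated and 0.216 ± 0.0127 in operated BL6, whose ranges did not overlap (0.119 to 0.144 against 0.203 to 0.229). In MRL it was 0.148 ± 0.00840 unoperated and 0.207 ± 0.0399 operated. No test was made of this ratio.

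Echs1, the short-chain enoyl-CoA hydratase, went from 172 ± 31.4 to 99.9 ± 11.4 CPM in BL6 (log2 -0.78 (SE 0.18, edgeR adjusted p = 0.00120)) and from 168 ± 19.4 to 115 ± 29.9 CPM in MRL (log2 -0.55 (SE 0.17, edgeR adjusted p = 0.0204)). The MRL call of Echs1 was lost in 3 of 25 alternatives, those without operated MRL replicate 2 or 3, or unoperated MRL replicate 4 (log2 -0.48 to -0.45, edgeR adjusted p from 0.0596 to 0.0721). Hadh, the short and medium chain hydroxyacyl-CoA dehydrogenase, fell in BL6 by 0.40 on the log2 scale, from 272 ± 26.2 to 206 ± 28.6 CPM (edgeR adjusted p = 0.0147), and did not pass there when libraries were scaled by total counts (log2 -0.27, edgeR adjusted p = 0.112). In MRL the value of Hadh was -0.27 (edgeR adjusted p = 0.101), and it passed without operated MRL replicate 4 (log2 -0.38, edgeR adjusted p = 0.0223). The thiolase Acaa2, at 271 ± 33.2 and 259 ± 48.5 CPM in BL6, and Hsd17b10, a dehydrogenase of short and branched chains, did not pass in either strain. Without operated BL6 replicate 4, Hsd17b10 passed in BL6 (log2 0.34, edgeR adjusted p = 0.0216, in place of 0.23). Of the 3 enzymes that prepare unsaturated chains, Decr1 fell in BL6 (log2 -0.48 (SE 0.13, edgeR adjusted p = 0.00512)), Eci2 fell in both (log2 -0.39 (SE 0.12, edgeR adjusted p = 0.00920) and -0.34 (SE 0.12, edgeR adjusted p = 0.0315)), and Eci1 did not pass in either. The MRL call of Eci2 was lost in 4 of 25 alternatives, those without operated MRL replicate 1 or 3, or unoperated MRL replicate 2 or 4 (log2 -0.36 to -0.27, edgeR adjusted p from 0.0503 to 0.107). Another gene, Gm15287, matches 21.3% of the Eci2 transcript at 95.9% identity, so the value of Eci2 is uncertain.

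The subunits of the electron transfer flavoprotein moved in opposite directions. Its beta subunit Etfb (ENSMUSG00000004610, chr7:43444083-43457800, plus strand) was at 58.97, 72.2, 69.98 and 65.2 CPM in unoperated and 213, 205, 218 and 164 CPM in operated BL6, and at 72.3, 60.01, 48.9 and 66.3 CPM in unoperated and 209.6, 160.3, 170.2 and 68.7 CPM in operated MRL. Etfb rose 3.003-fold in BL6 without overlap, and in MRL 3 operated libraries were far above the unoperated range while replicate 4 lay inside it. The changes on the log2 scale were 1.59 (SE 0.24, edgeR adjusted p = 7.77e-05) and 1.30 (SE 0.24, edgeR adjusted p = 0.00166), with 1.54 in MRL without replicate 4. The alpha subunit Etfa fell from 249.9 ± 18.2 to 135 ± 26.8 CPM in BL6 (log2 -0.89 (SE 0.16, edgeR adjusted p = 0.000224)) and from 243 ± 20.2 to 173 ± 35.2 CPM in MRL (log2 -0.49 (SE 0.16, edgeR adjusted p = 0.0210)), the MRL call being lost in 2 of 25 alternatives, those without operated MRL replicate 3, or unoperated MRL replicate 4 (log2 -0.43 to -0.37, edgeR adjusted p from 0.0599 to 0.0747). Etfdh, which hands the electrons on to ubiquinone, fell from 217 ± 31.1 to 95.3 ± 22.7 CPM in BL6 (log2 -1.19 (SE 0.20, edgeR adjusted p = 0.000145)) and by 0.63 on the log2 scale in MRL (0.80 without operated MRL replicate 4), the MRL call being lost in 2 of 25 alternatives, those without operated MRL replicate 3, or unoperated MRL replicate 4 (log2 -0.57 to -0.49, edgeR adjusted p from 0.0526 to 0.0681). The CPM ratio of Etfb to Etfa within a library was 0.267 ± 0.0271 in unoperated and 1.51 ± 0.218 in operated BL6. In MRL it was 0.256 ± 0.0504 unoperated and 0.939 ± 0.438 operated, where replicate 4 stood at 0.319. A predicted gene, Gm45233, shares 53.0% of the exon bases of Etfb on the same strand, and how such reads were counted is not given in the sources used here.

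Of the peroxisomal enzymes, Ehhadh and Hsd17b4 fell and Acaa1a rose in both strains. Ehhadh, the bifunctional hydratase and dehydrogenase (ENSMUSG00000022853, chr16:21761287-21787807, minus strand), was at 13.6, 14.002, 14.1 and 14.3 CPM in unoperated and 3.59, 3.60, 5.91 and 5.83 CPM in operated BL6, and at 11.4, 12.1, 10.4 and 9.51 CPM in unoperated and 6.25, 5.24, 4.90 and 9.34 CPM in operated MRL. The unoperated BL6 libraries were nearly equal. Operated and unoperated libraries did not overlap in either strain, though operated MRL replicate 4 fell just short of the lowest unoperated MRL library. edgeR's log2 fold changes were -1.56 (SE 0.21, edgeR adjusted p = 2.94e-05) and -0.75 (SE 0.20, edgeR adjusted p = 0.00917), the MRL call being lost with libraries scaled by total counts (log2 -0.68, edgeR adjusted p = 0.0621). Hsd17b4, the other bifunctional enzyme of peroxisomes, fell by 0.74 on the log2 scale in BL6 (edgeR adjusted p = 0.000579) and by 0.42 in MRL (edgeR adjusted p = 0.0330; by 0.60 without operated MRL replicate 4), the MRL call being lost in 8 of 25 alternatives, among them those without operated MRL replicate 1, 2 or 3, or unoperated MRL replicate 2, 3 or 4 (log2 -0.42 to -0.29, edgeR adjusted p from 0.0629 to 0.110). Acaa1a, a peroxisomal thiolase, rose by small steps in BL6 (log2 0.28 (SE 0.10, edgeR adjusted p = 0.0216)) and MRL (log2 0.27 (SE 0.10, edgeR adjusted p = 0.0452)). The BL6 call was lost in 7 of 25 alternatives, among them those without operated BL6 replicate 3 or 4, or unoperated BL6 replicate 1, 3 or 4 (log2 0.22 to 0.27, edgeR adjusted p from 0.0546 to 0.0753). The MRL call was lost in 13 of 25 alternatives, among them those without unoperated BL6 replicate 3 or 4, or operated MRL replicate 1 or 3, or unoperated MRL replicate 2, 3 or 4 (log2 0.21 to 0.27, edgeR adjusted p from 0.0555 to 0.139).

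The thioesterase Acot13 rose in BL6 from 129 ± 4.74 to 204 ± 55.01 CPM (log2 0.65 (SE 0.22, edgeR adjusted p = 0.0175)), a call lost in 1 of 25 alternatives, that without operated BL6 replicate 2 (log2 0.54, edgeR adjusted p = 0.0534). Operated BL6 replicate 4, at 124 CPM, lay inside the unoperated range of 123 to 134 CPM while the other 3 operated libraries held 219 to 252 CPM. In MRL Acot13 passed without operated MRL replicate 4 (log2 0.58, edgeR adjusted p = 0.0162) and not over all libraries (log2 0.39, edgeR adjusted p = 0.163). Acot2, a mitochondrial thioesterase, rose in MRL from 7.95 ± 1.09 to 11.3 ± 2.14 CPM (log2 0.50 (SE 0.17, edgeR adjusted p = 0.0263)), a call lost in 5 of 25 alternatives, those without operated MRL replicate 1 or 3, or unoperated MRL replicate 2, 3 or 4 (log2 0.40 to 0.50, edgeR adjusted p from 0.0525 to 0.0896). Acot1 matches 58.0% of the Acot2 transcript at 95.1% identity, so the value of Acot2 is uncertain. Among the ketone body enzymes, Oxct1, which activates acetoacetate for use, fell from 769 ± 43.001 to 279 ± 45.2 CPM in BL6 (log2 -1.46 (SE 0.17, edgeR adjusted p = 1.77e-05)) and from 567 ± 77.8 to 314 ± 77.1 CPM in MRL (log2 -0.85 (SE 0.17, edgeR adjusted p = 0.00229)), without overlap in either strain. Acat1, the mitochondrial acetoacetyl-CoA thiolase, fell in both (log2 -0.52 (SE 0.16, edgeR adjusted p = 0.00969) and -0.45 (SE 0.16, edgeR adjusted p = 0.0347)), the MRL call being lost in 7 of 25 alternatives, among them those without operated MRL replicate 1, 2 or 3, or unoperated MRL replicate 2, 3 or 4 (log2 -0.48 to -0.38, edgeR adjusted p from 0.0512 to 0.106). Bdh1, which interconverts the ketone bodies, did not pass in either (log2 -0.50 (SE 0.29, edgeR adjusted p = 0.145) and -0.73 (SE 0.30, edgeR adjusted p = 0.0534)). Its MRL value passed without operated MRL replicate 4 (log2 -1.09, edgeR adjusted p = 0.00350), without operated BL6 replicate 4 (log2 -0.73, edgeR adjusted p = 0.0403) and without unoperated MRL replicate 1 (log2 -0.82, edgeR adjusted p = 0.0429).

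**Figure D4:**
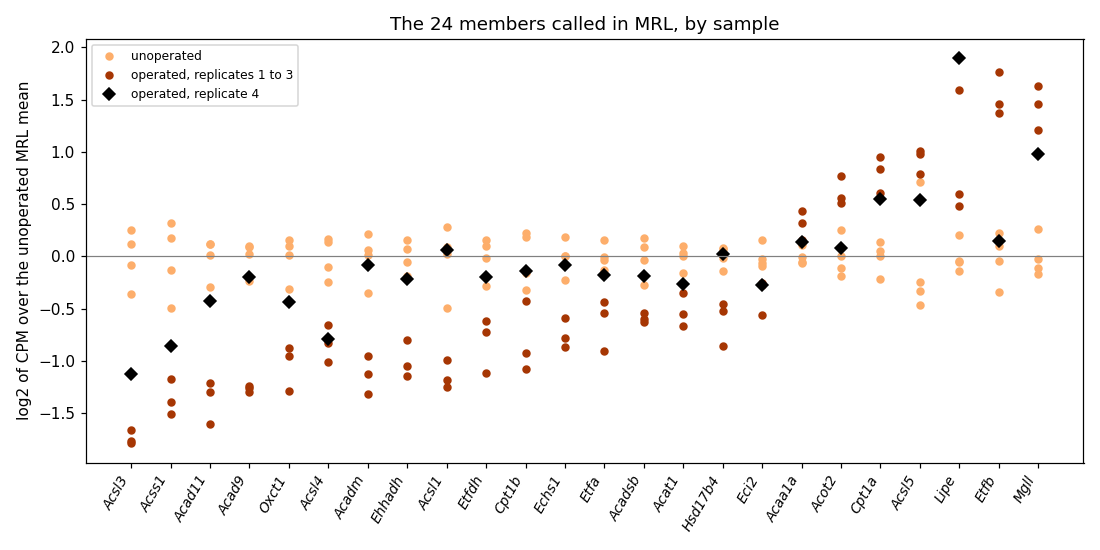
Log2 of CPM over the unoperated MRL mean for the 24 genes called in MRL, in each MRL library, with unoperated libraries in light points, operated replicates 1 to 3 in dark points and operated replicate 4 as a diamond. The diamond lies inside the unoperated range for 11 of the 24 genes and the dark points for none.

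Unoperated MRL muscle was set against unoperated BL6 muscle to see how the strains start. The submitters' notes name only the build mm10 for both strains, and a difference between strains in how reads map to it was not tested. Of the 42 genes, 2 were called lower in MRL (Acaa1a and Mlycd) and 0 higher, against 5.36% and 5.02% of all genes tested and 10.4% in either direction. An unadjusted p under 0.05 was found for 6 of the 42 (14.3%), against 24.3% of all genes. Groups did not overlap for 9 genes lower and 1 higher in MRL, against 12.9% and 12.2% of all genes. The median log2 difference, MRL over BL6, was -0.16 over the 42 genes and 0.01 over all. Acaa1a (ENSMUSG00000036138, chr9:119339676-119350299, plus strand) was at 34.5, 42.9, 35.97 and 36.05 CPM in unoperated BL6 and 18.5, 16.5, 16.5 and 17.04 CPM in unoperated MRL, and after surgery at 40.04, 42.7, 50.9 and 48.1 CPM in BL6 and 23.1, 19.1, 21.3 and 18.9 CPM in MRL. Every MRL library lay below every BL6 library. The log2 differences were -1.13 (SE 0.10, edgeR adjusted p = 1.23e-06) unoperated and -1.14 (SE 0.10, edgeR adjusted p = 1.14e-06) operated, 2.18-fold and 2.21-fold lower. Its neighbour Acaa1b, no member of the set, matches 21.3% of the Acaa1a transcript at 98.7% identity. In turn, Acaa1a matches 84.5% of the Acaa1b transcript at 96.6% identity. Acaa1b showed the reverse, 0.0601, 0.144, 0.0264 and 0 CPM in unoperated BL6 and 5.96, 5.42, 5.68 and 5.31 CPM in unoperated MRL. The sum of both genes was 37.4 ± 3.83 CPM in unoperated BL6 and 22.7 ± 1.17 CPM in unoperated MRL, and after surgery 46.1 ± 5.44 CPM in BL6 and 30.3 ± 3.47 CPM in MRL, still without overlap between strains. The division of reads between the copies was not tested, and how reads matching both were counted is not given in the sources used here. Reads left uncounted would be missing from the sum as well, so the size of the Acaa1a difference is uncertain.

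Mlycd (ENSMUSG00000074064, chr8:119394878-119411102, plus strand) was at 120.1, 130.04, 143 and 138 CPM in unoperated BL6 and 83.7, 88.02, 85.7 and 98.4 CPM in unoperated MRL, with no overlap. In operated muscle it was at 123, 149.8, 94.03 and 68.2 CPM in BL6 and 79.4, 84.1, 86.8 and 93.7 CPM in MRL, and the groups overlapped with operated BL6 replicate 4 the lowest of the 8. The log2 difference was -0.58 (SE 0.17, edgeR adjusted p = 0.0460) unoperated and -0.34 (SE 0.17, edgeR adjusted p = 0.232) operated, where it passed without operated BL6 replicate 4 (log2 -0.51, edgeR adjusted p = 0.0208). The unoperated call was lost in 14 of 25 alternatives, among them those without operated BL6 replicate 1 or 3, or unoperated BL6 replicate 2, 3 or 4, or operated MRL replicate 1, 2 or 3, or unoperated MRL replicate 1, 2, 3 or 4 (log2 -0.63 to -0.54, edgeR adjusted p from 0.0515 to 0.123). Fitted on the 8 unoperated libraries alone, 8 genes were called lower and 2 higher in MRL, and without operated MRL replicate 4 the count of lower calls was 4, with Acad9 (log2 -0.36, edgeR adjusted p = 0.0223) and Oxct1 (log2 -0.45, edgeR adjusted p = 0.0438) added.

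In operated muscle, 1 of the 42 genes was called higher in MRL than in BL6 (Acsl4) and 1 lower (Acaa1a), against 7.6% and 5.27% of all genes and 12.9% in either direction. Groups did not overlap for 1 gene each way, against 7.41% higher and 6.16% lower of all genes, and the median log2 difference was 0.07 over the 42 genes and -0.01 over all. The 4 operated MRL libraries held more Acsl4 than any operated BL6 library, with a log2 difference of 0.63 (SE 0.13, edgeR adjusted p = 0.00548), while the unoperated groups overlapped at 0.13 (SE 0.13, edgeR adjusted p = 0.589). Both operated calls held under every alternative. When libraries were scaled by total counts, 4 genes were called higher.

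Whether the response to surgery differed between the strains was asked by the interaction of strain and surgery. None of the 42 genes was called, and 6 (14.3%) had an unadjusted p under 0.05, against 15.7% of all genes. Of all genes 29, or 0.248%, were called, 0.154% positive and 0.0939% negative. The lowest adjusted p by edgeR's quasi-likelihood test was 0.181, for Acss1, and under the alternatives it ran from 0.0638 with DESeq2 to 0.312 without unoperated BL6 replicate 4, with 0 genes called in each. The interaction of Acss1 was -1.18 on the log2 scale (SE 0.37), with a fall called in MRL (log2 -1.21) and none in BL6 (log2 -0.03). Unoperated MRL held more Acss1 than unoperated BL6, without a call (log2 0.68, edgeR adjusted p = 0.118). The interaction of Ehhadh was 0.81 (SE 0.29), of Acad9 0.70 (SE 0.28), of Oxct1 0.61 (SE 0.24) and of Acsl4 0.50 (SE 0.19), each with the smaller drop in MRL. The interaction was positive for 35 of the 42 genes, including all 8 dehydrogenases, and for 5735 of all 11709 genes, and its median was 0.24 over the 42 genes and -0.01 over all. Without operated MRL replicate 4 it was positive for 35 with a median of 0.17, and without unoperated MRL replicate 1 and operated BL6 replicate 4 together for 30 with a median of 0.15. The genes share their libraries, so these counts describe the 16 samples and are no test of the set.

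The rest of the pathway was read from a list of 49 further genes for transport, activation and oxidation. In BL6, 15 rose and 22 fell, against 35.1% called higher and 32.8% lower of all genes. In MRL 11 rose and 12 fell, 22.4% and 24.5% of the list, near the 22.3% and 22.7% of all genes. Without operated MRL replicate 4 the MRL counts were 10 and 17. Slc25a20, which carries acylcarnitine across the inner mitochondrial membrane, fell in both (log2 -0.78 (SE 0.16, edgeR adjusted p = 0.000649) and -0.55 (SE 0.16, edgeR adjusted p = 0.0133)). Cd36, which helps fatty acids across the cell membrane, did not pass in BL6 (log2 0.02 (SE 0.18, edgeR adjusted p = 0.934)) and rose in MRL (log2 0.61 (SE 0.18, edgeR adjusted p = 0.0124)). Its interaction was 0.59 (SE 0.25, edgeR adjusted p = 0.277). The peroxisomal transporter Abcd2 fell in both (log2 -1.86 and -1.02). The binding proteins Fabp4 (log2 2.47 and 2.26) and Fabp5 (log2 2.26 and 2.20) and the capillary lipase anchor Gpihbp1 (log2 1.87 and 1.61) rose in both. Fabp4 is also on the adipocyte list, and capillary cells express it too.

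Of 16 regulators of the pathway, 11 fell and 1 rose in BL6, and 9 fell and 1 rose in MRL, or 13 and 1 without operated MRL replicate 4. The shares of all genes were those just given. In operated BL6 the sum of the 16 divided, at 1550 and 2242 CPM in replicates 1 and 2 and 707 and 599 CPM in replicates 3 and 4. In unoperated BL6 that sum was 2097 to 2937 CPM, with Pdk4 among its largest parts. Ppara, the nuclear receptor that drives fatty acid oxidation genes, was at 9.67, 7.37, 11.5 and 11.3 CPM in unoperated and 2.74, 2.21, 1.32 and 1.42 CPM in operated BL6, and at 3.12, 7.18, 9.61 and 10.6 CPM in unoperated and 1.18, 1.25, 1.24 and 6.76 CPM in operated MRL. Operated MRL replicate 4 again lay with the unoperated libraries. The log2 fold changes of Ppara were -2.38 (SE 0.54, edgeR adjusted p = 0.00124) and -1.52 (SE 0.52, edgeR adjusted p = 0.0265), and the MRL value was -2.64 (edgeR adjusted p = 0.000112) without that library. The kinase subunit Prkaa2 fell by 1.97 on the log2 scale in BL6 and by 1.18 in MRL, Lpin1, a phosphatidate phosphatase and coactivator, by 1.54 and 1.43, the coactivator Ppargc1b by 1.42 and 0.98, and the receptor Rxra by 1.17 and 0.99. Pparg, the receptor of adipocyte formation, rose in both (log2 2.01 (SE 0.25, edgeR adjusted p = 2.01e-05) and 1.59 (SE 0.24, edgeR adjusted p = 0.000660)). Esrra, the estrogen-related receptor that acts on oxidative genes, fell in BL6 (log2 -0.40 (SE 0.14, edgeR adjusted p = 0.0161)) and did not pass in MRL (log2 -0.30 (SE 0.14, edgeR adjusted p = 0.0841)), where it passed without operated MRL replicate 4 (log2 -0.37, edgeR adjusted p = 0.0348) or operated BL6 replicate 4 (log2 -0.29, edgeR adjusted p = 0.0493). Ppargc1a, another coactivator, did not pass in either (log2 -0.60 (SE 0.56, edgeR adjusted p = 0.352) and -0.93 (SE 0.56, edgeR adjusted p = 0.181)), and passed in MRL without operated MRL replicate 4 (log2 -1.54, edgeR adjusted p = 0.0327).

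Measures of mitochondria did not move in 1 direction. Of 10 nuclear genes for common mitochondrial proteins, 4 fell in BL6 (Cs, Sdha, Ndufs1 and Vdac1) and 5 in MRL, and Cox4i1 rose in both. For this list and the marker lists below, the shares of all genes were 32.8% called lower and 35.1% higher in BL6. In MRL they were 22.7% and 22.3%. The BL6 shares called lower of the mitochondrial genes (40%) and fibre markers (37.5%) are near that of all genes. The mitochondrially encoded genes summed to between 137060 and 148648 CPM in unoperated and between 136739 and 254204 CPM in operated BL6. The 136739 CPM was that of operated BL6 replicate 4, and replicates 1 to 3 held 208848 to 254204 CPM. As a plain share of all counts, without TMM, they took 12.2% to 14.2% in unoperated and 17.4% to 23.8% in operated BL6, without overlap. Fibroblast markers rose in BL6 for 3 of 5 genes and macrophage markers for 3 of 6, and in MRL 0 of either list passed. Without operated BL6 replicate 4, 2 fibroblast and 2 macrophage markers rose in BL6, and 2 fibroblast and 0 macrophage markers in MRL. Without unoperated MRL replicate 1 the macrophage counts were 6 in BL6 and 1 in MRL, and without both libraries 4 and 5, with 2 and 3 fibroblast markers. The fibroblast sum ran from 629.5 to 1517 CPM in unoperated and 1042 to 7336 CPM in operated BL6, and from 1312 to 2488 CPM and 1752 to 3669 CPM in MRL. The macrophage sum ran from 29.3 to 126 CPM in unoperated and 68.7 to 459.8 CPM in operated BL6, and from 58.4 to 291 CPM and 105 to 197 CPM in MRL. Of 8 muscle fibre markers, 3 fell in BL6 and 2 in MRL (Ckm and Acta1). The counts were 2 and 4 without operated BL6 replicate 4, and 3 and 1 without unoperated MRL replicate 1. In MRL 4 of the 8 had a positive and 4 a negative log2 fold change. The myosin Myh7 was at 201 CPM in operated MRL replicate 4. It was at 2.19, 0.936 and 16.2 CPM in operated MRL replicates 1 to 3 and at 1.41 to 19.0 CPM in unoperated MRL. The myosin Myh2 was at 2739 CPM in operated MRL replicate 4, against 999 to 1374 CPM in replicates 1 to 3. The part of fibre content and type, other cells and mitochondrial amount in the changes of the fatty acid genes was not tested. With libraries scaled by total counts the median of all genes after surgery in BL6 was 0.18 in place of 0.04, and 4443 genes were called higher and 2932 lower in place of 4107 and 3843, while the median of the 42 genes was -0.35.

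The authors' deposited table of their own edgeR comparisons called 7 of the 42 genes higher and 23 lower in BL6, all 30 shared in gene and direction with the calls above. For MRL the authors' deposited table called 7 higher and 21 lower, with 24 shared. For the unoperated strains the authors' deposited table called 1 higher in MRL (Acss1) and 1 lower (Acaa1a), of which 1 was shared. For the operated strains it called 1 higher and 1 lower (2 shared).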

How the data were processed

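RNA sequencing of 16 samples was used, with strain and surgery taken from the sample characteristics and replicate numbers from the titles. The authors deposited whole-number counts per gene without normalization, which is a reading of the values. The submitters' processing notes name FastQC, STAR, edgeR and the build mm10, and versions and counting rules are not given in the sources used here. The authors also deposited log2 fold changes with p-values and false discovery rates, per the file headers. The 42 genes, their roles and the comparison lists were chosen with earlier results of these data known.

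Counts were fitted over all 16 samples in edgeR 4.0.16 (R 4.3.3) with TMM scaling, the filterByExpr rule at a minimum count of 10 (1 gene removed), 1 mean per group and the quasi-likelihood test. P-values were adjusted by Benjamini-Hochberg over 11709 genes and called under 0.05. The interaction is the MRL effect of surgery minus the BL6 effect. Alternatives were RLE size factors, total counts, omission of mitochondrially encoded genes, no filter, DESeq2 1.42.0, limma 3.58.1 voom, the groups compared alone, a replicate block, and each library left out. Another, without unoperated MRL replicate 1 and operated BL6 replicate 4, was chosen after the data were seen, as were those that left libraries out of the counts over the comparison lists. Same-numbered samples did not deviate together throughout, so the numbers were not taken as pairs. No libraries were duplicates: the lowest chi-square per degree of freedom within a group was 14.8. Counts simulated with the fit's own estimate of spread were used as a check of the code, and no result here rests on them.

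Values per library are given for up to 5 called genes per comparison with the largest change, and for Cpt1b, Cpt1a, Acadm, Hadha, Fabp3, Pnpla2 and Lipe whatever they did. Exon lengths and overlaps came from GENCODE annotation of GRCm38, near copies from BLAST 2.17.0 and promoters from RefSeq for GRCm38.p6. Library depth was 24323862 to 43552964 counts, and the SDs between replicates include counting error.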

Additional observations from a re-analysis of the deposited data

Results flagged for a closer look

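Each of the 42 genes was examined in each of the 4 groups for a library far from the other 3, by the ratio of its gap to the group's range. Of 168 such sets, 11 stood out, in 10 genes, which is near the 1 in 20 or so that chance gives. The genes share their libraries, so the sets are not independent. Operated MRL replicate 4 was the high library in 5 of the 11. It held 357 CPM of Acsl1 against 144 to 172 CPM in replicates 1 to 3, 17.5 CPM of Acsl3 against 11.1 to 12.1 CPM, and 23.7 CPM of the dehydrogenase Acad9 against 11.1 to 11.5 CPM. It also held 144 CPM of Acads against 72.2 to 80.9 CPM and 118 CPM of Acadsb against 87.4 to 92.5 CPM. Operated MRL replicate 3 was the low library for Acadvl, 366 CPM against 485 to 498 CPM, and for Eci2, 42 CPM against 51.2 to 51.9 CPM.

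Unoperated MRL replicate 1, which also had the most macrophage marker RNA of its group, was high in Acsl5, at 19.7 CPM against 8.77 to 10.2 CPM. Cpt2 was low in unoperated MRL replicate 3, at 87.1 CPM against 94.5 to 94.9 CPM, and in operated BL6 replicate 4, at 76.1 CPM against 104 to 108 CPM. Cpt1a was high in unoperated BL6 replicate 1, at 15.5 CPM against 9.77 to 10.6 CPM. What these libraries share was not tested.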

How the results depend on the processing

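No called gene changed direction under any alternative. After surgery the genes called lower in BL6 ranged from 21 to 25 and those called higher from 6 to 7 with each library left out. In MRL they ranged from 7 to 21 lower and from 5 to 8 higher. Between unoperated strains, where 2 genes were called lower and 0 higher in MRL, the count of lower calls was 1 with limma voom, 1 with the replicate block, 8 with the groups compared alone and 1 to 4 with a library left out. The count of higher calls there was 2 with the groups compared alone, 2 with total counts, 1 without unoperated MRL replicate 1 and operated BL6 replicate 4, and 0 with any 1 library left out. Between operated strains, where 1 gene was called each way, 2 were called higher with DESeq2, 4 with total counts and 1 to 3 with a library left out. There, 2 were called lower without unoperated MRL replicate 1 and operated BL6 replicate 4, and 1 to 2 with a library left out. Calls over all genes were not counted with the groups compared alone or with libraries left out, so those counts have no share beside them. The causes were not tested.

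Pnpla2, which was not called, changed sign. In BL6 it was 0.058 with total counts, 0.01 without unoperated MRL replicate 1 and operated BL6 replicate 4, and -0.129 to 0.022 with a library left out. In MRL it was -0.0011 without that pair of libraries, and -0.0598 to 0.114 with a library left out.

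The replicate block gave 23 lower and 7 higher calls in BL6 and 16 and 6 in MRL. Numbers pair samples only as a label: same-numbered samples correlated at -0.141 on average across surgery in BL6 and 0.092 in MRL. Between strains the average was 0.160 unoperated and 0.165 operated, against -0.046 and -0.044 for different numbers, though not every pair was above 0.1 (-0.110 for number 2 unoperated and -0.096 for number 3 operated). Over the 6 pairs of groups, 15 of 48 best matches were with the same number. Total counts moved the median of all genes between unoperated strains from 0.01 to 0.15, with 742 genes called higher and 313 lower in place of 588 and 628, and the calls between operated strains to 994 higher and 383 lower in place of 890 and 617. Unoperated BL6 libraries were deeper, at 33679319 to 43552964 counts, than operated BL6 libraries, at 26469749 to 31094642 counts.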
